A study of Mus musculus with 12 samples.

Results

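The chemokine system was examined in the distal colorectal mucosa of mice 100 days into chemically induced colon carcinogenesis. Members were all genes whose symbol names a chemokine ligand (Ccl, Cxcl, Cx3cl or Xcl with a number) or a conventional chemokine receptor (Ccr, Cxcr, Cx3cr or Xcr with a number) and that have a probe on the array. This gave 53 genes, 34 ligands and 19 receptors, of 18539 named genes on the array, read by 67 probes. Where a gene had more than 1 probe, as 14 genes did, the brightest was used. The naming rule itself uses no measured value, but it was chosen with earlier results of these data known.

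Messenger RNA was measured on 12 one-colour Agilent arrays, 3 in each of 4 groups of female BALB/c mice. Their stated age of 5 to 7 weeks cannot be that at collection on day 100. The AOM/DSS group received azoxymethane (AOM, a colon carcinogen) at 12.5 mg/kg by intraperitoneal injection on day 1, then dextran sulfate sodium (DSS, which injures the epithelium) in the drinking water for 5 days of every 21, in 3 cycles from day 5. The AOM group received 10 mg/kg in each of 6 weekly injections from day 1. The DSS group received the same DSS cycles without AOM, and the control group received neither agent. All tissue was collected on day 100 and is labelled distal colorectal epithelium. The AOM/DSS samples were neoplasms clipped with scissors into RNA storage solution, whereas the other 3 groups were epithelium scraped with a slide into Trizol, so tissue, storage and AOM schedule cannot be told apart in any comparison with AOM/DSS. Neither the DSS concentration nor whether replicates were separate mice is stated in the sources used here. Each p-value therefore covers the differences among these 12 samples alone, and those could be technical.

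Chemokines are small secreted proteins that steer leukocytes along concentration gradients by way of G protein-coupled receptors. Inflammatory chemokines are induced by cytokines and microbial products through NF-kappaB and recruit neutrophils, monocytes and effector T cells. Homeostatic chemokines place lymphocytes in follicles and at mucosal surfaces, and several of them are made by the intestinal epithelium itself. In the colon, the CXC ligands that engage CXCR2 bring in neutrophils during colitis and in tumours.

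The CXCR2 ligand genes Cxcl1, Cxcl2 and Cxcl3 are shown here because, with Cxcl5, they were called higher in AOM/DSS than in both control and DSS, and because their promoters share a kappaB-type motif. The 110 bases before the start of each were taken from RefSeq (GRCm38.p6, plus strand): chr5:90891135-90891244 for Cxcl1, chr5:90903789-90903898 for Cxcl2 and chr5:90785991-90786100 for Cxcl3. Capitals mark the motif.
Cxcl1: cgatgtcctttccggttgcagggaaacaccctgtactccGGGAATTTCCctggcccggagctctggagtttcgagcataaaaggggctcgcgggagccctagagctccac
Cxcl2: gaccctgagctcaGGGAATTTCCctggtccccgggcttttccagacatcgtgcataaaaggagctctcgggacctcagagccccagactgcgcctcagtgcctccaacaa
Cxcl3: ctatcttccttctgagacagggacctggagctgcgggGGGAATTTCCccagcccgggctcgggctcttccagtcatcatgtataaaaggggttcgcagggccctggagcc
The motif GGGAATTTCC began 71 bases before the start of Cxcl1, 97 before that of Cxcl2 and 73 before that of Cxcl3. Searched on both strands of the 250 bases before every listed start, it was present in 0.0852% of 32851 windows. Of the 53 members, 40 were listed in that table, and 4 held the motif, namely these 3 ligands and Ccr3. The looser form GGGANNTTCC, which contains the first motif, was present in 1.21% of windows and in 6 members, Ccl1, Ccr3, Cxcl1, Cxcl10, Cxcl2 and Cxcl3. The motifs were chosen after the sequences had been seen, so the matches are a description only, and no binding was measured. Cxcl5 is not listed.

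Levels are log2 processed intensity relative to the 75th percentile of the same array, so 0 is that percentile, and values are given in the order of replicates 1, 2 and 3. A level compares 1 gene between arrays and says nothing about 1 gene against another. The 75th percentile of intensity ran from 1115 to 1185 on the AOM/DSS arrays and from 393 to 694 on the other 9. All 10 epithelial marker genes were well above background on every array, with a mean log2 level of 5.14 to 5.41 on AOM/DSS arrays and 6.31 to 7.26 elsewhere. Control replicate 3 also carried exocrine pancreas transcripts (mean log2 level 6.24 over 9 genes), as did DSS replicate 1 (3.53) and control replicate 1 (1.71). Control replicate 2 was at -1.11, with all 9 genes well above background. The AOM arrays were at -3.73 to -3.7 and the AOM/DSS arrays at -4.71 to -4.2. Of these 9 genes, 7 were called lower in AOM/DSS and 4 in AOM than in control. The part of pancreas transcripts in the chemokine values was not tested.

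Fewer chemokine genes were detected on the control arrays than on 8 of the 9 arrays of treated mice, DSS replicate 3 being the exception. Of the 53 genes, 45, 44 and 45 were well above background on the AOM arrays, 44, 42 and 44 on the AOM/DSS arrays, 41, 42 and 34 on the DSS arrays and 32, 30 and 37 on the control arrays. Detection of all probes also differed between arrays. It was 58.9%, 58.7% and 54.3% on the AOM arrays and 64.7%, 66.2% and 62.6% on the AOM/DSS arrays. On the DSS arrays it was 59.3%, 55.1% and 52.05%, and on the control arrays 52.9%, 54.7% and 55.3%. The part of array-wide detection in the member counts was not tested. In all, 28 genes were detected on all 12 arrays, 20 on 1 to 11 arrays and 5 on no array. Testing required detection on each of the 3 arrays of some group, which left 44 members (30 ligands and 14 receptors) among 18963 genes. The 9 others, Ccl1, Ccl22, Cxcl15, Cxcl17, Ccr1, Ccr1l1, Ccr4, Ccr8 and Cxcr1, were detected on 2 arrays at most, and Ccl1, a T cell-derived ligand, was detected only on AOM replicates 1 and 3.

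**Figure D1:**
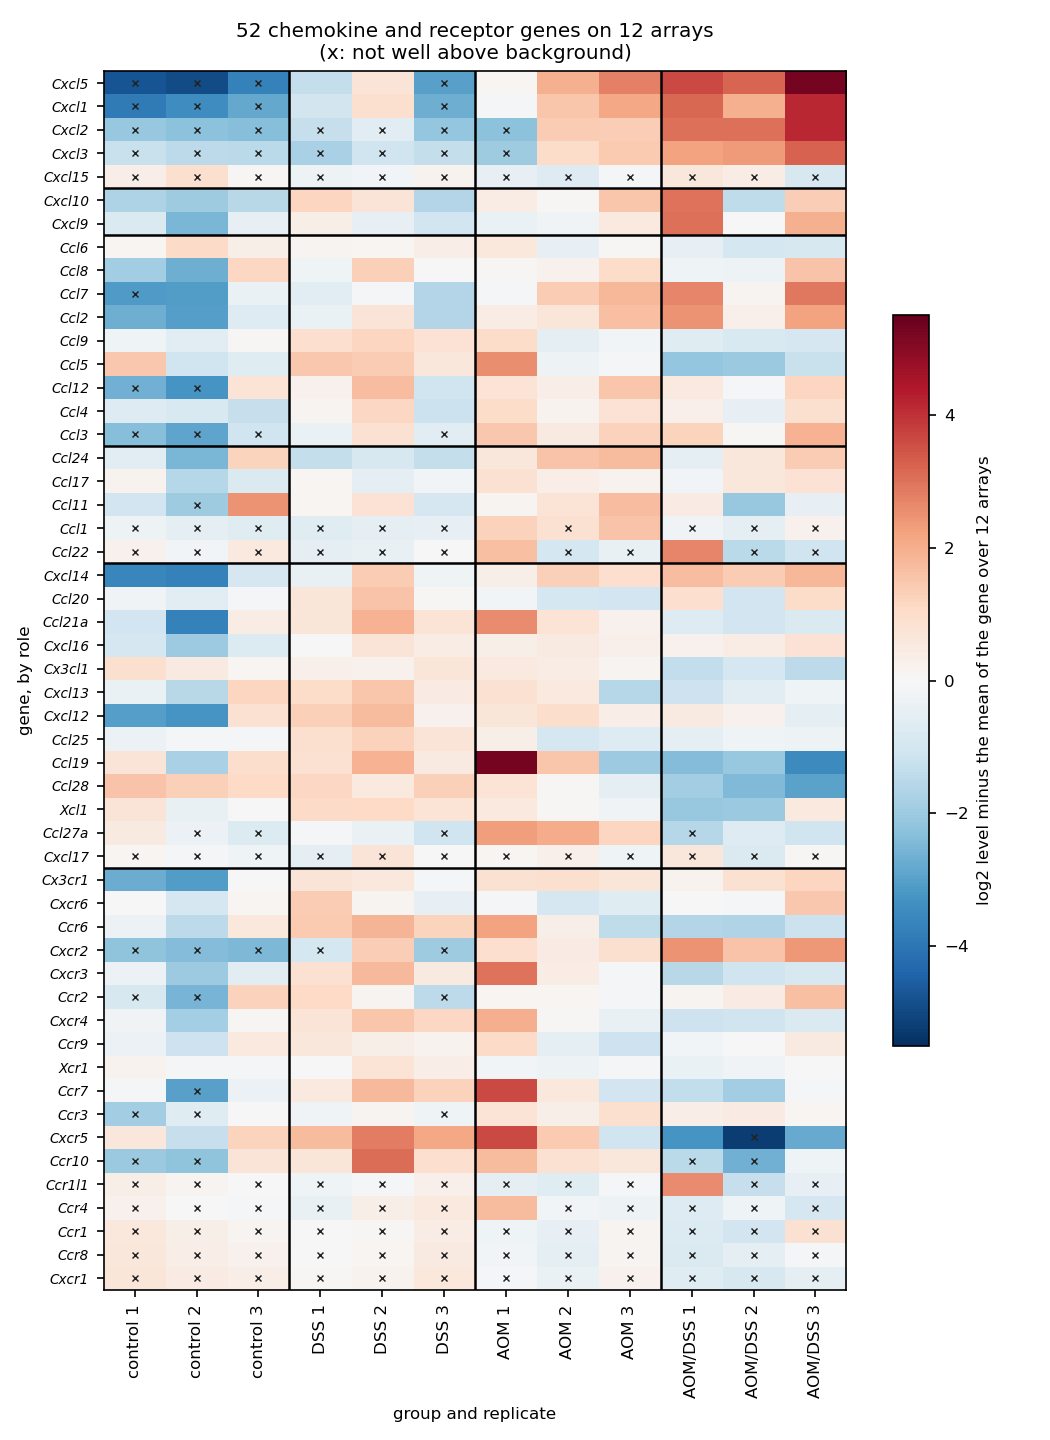
Log2 level of 52 of the 53 genes on each of the 12 arrays, as the difference from that gene's mean over the arrays, with genes in rows by role and arrays in columns by group. Crosses mark values not well above background, which were most frequent on the control arrays.

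Differences were tested with limma over all genes, and a gene was called at a Benjamini-Hochberg adjusted p under 0.05. Against control, 14 members were higher and 4 lower in AOM/DSS, where 17.2% of all genes tested were called higher and 17.5% lower. In AOM, 14 members were higher and 1 lower than control, against 14.8% and 17.6% of all genes. In DSS, 0 members were higher and 0 lower than control, against 0.163% of all genes in each direction. Between the treated groups, 2 members were higher and 8 lower in AOM/DSS than in AOM (19.5% and 17.7% of all genes), and 7 were higher and 12 lower in AOM/DSS than in DSS (17.6% and 18.2% of all genes). The 14 higher members were 31.8% of those tested, above the background in both comparisons of an AOM-treated group with control. Against AOM, the 8 lower members (18.2%) lay near the background and the 2 higher ones (4.55%) below it, whereas against DSS the 12 lower members were 27.3%.

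The median log2 difference of the 44 members was 0.92 in AOM/DSS against control, 1.59 in AOM against control and 1.26 in DSS against control. Over all genes tested, these medians were 0.03, -0.01 and -0.02. A member could pass the filter through the group in which it was high, so these medians do not describe all 53 genes. With arrays centred on their median instead, 33.7% of called genes were higher in AOM/DSS than in AOM, against 52.4% here, and the median of all genes was -0.364. That setting gave 39.1% in place of 49.7% against control and 35.2% in place of 49.1% against DSS. The 3 comparisons with control share their control arrays, and the 3 with AOM/DSS share those of that group.

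**Figure D2:**
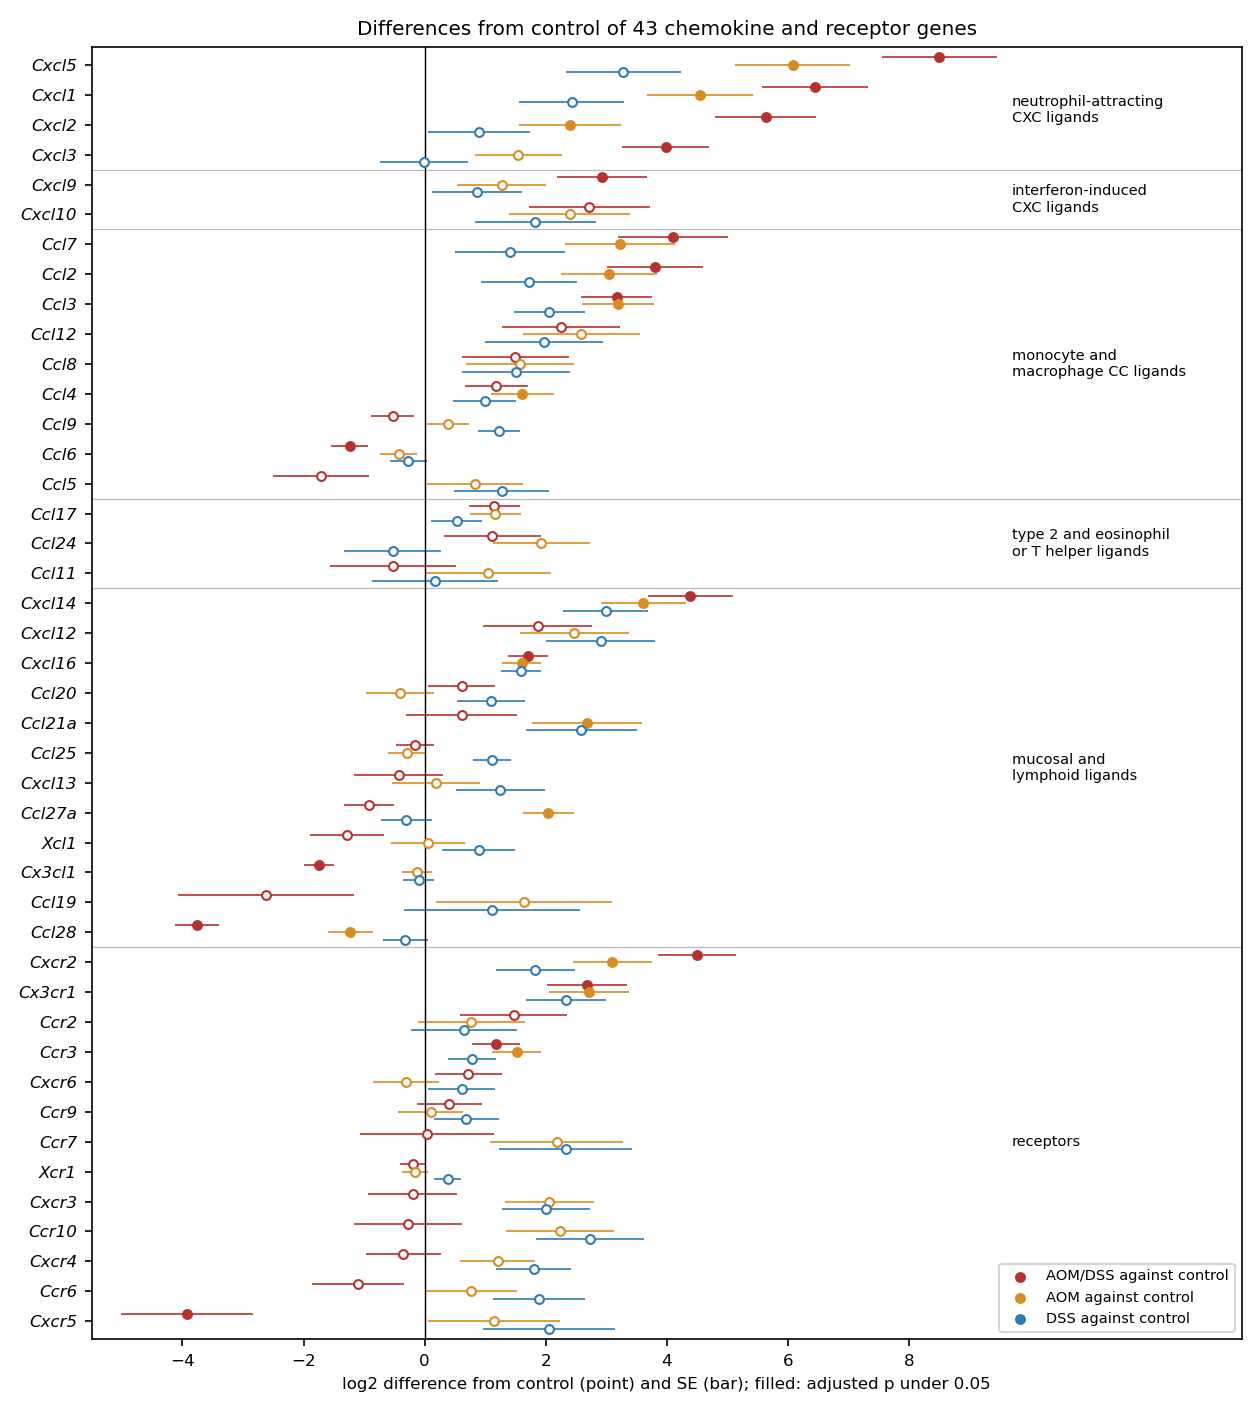
Log2 difference from control, with its standard error, of 43 of the 44 tested genes in AOM/DSS, AOM and DSS, ordered by role, with filled points for an adjusted p under 0.05. Cxcl5 lies farthest to the right, at 8.5 in AOM/DSS, and Cxcr5 and Ccl28 farthest to the left, at -3.93 and -3.76.

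The 4 neutrophil-attracting CXC ligands that were tested all rose in AOM/DSS against control and against DSS, beside 17.2% and 17.6% of all genes. Against AOM, 2 of them also rose, beside 19.5% of all genes. Cxcl5, an epithelial CXCR2 ligand, was at -6.1, -6.27 and -5.04 on the control arrays, -2.63, -0.61 and -4.33 in DSS, -1.22, 0.63 and 1.43 in AOM, and 2.29, 1.87 and 3.94 in AOM/DSS. Cxcl1, the mouse neutrophil chemoattractant also called KC, was at -5.91, -5.44 and -4.85 in control, -3.04, -1.16 and -4.71 in DSS, -2.11, -0.52 and 0.09 in AOM, and 1.11, -0.07 and 2.11 in AOM/DSS. For Cxcl5 every AOM/DSS array lay above every AOM array, and for both genes every AOM array lay above every control array. Both were not well above background on any control array or on DSS replicate 3.

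Cxcl2 and Cxcl3, which encode closely related CXCR2 ligands made by myeloid and epithelial cells, were detected only in the groups that received AOM. Cxcl2 was at -6.03, -6.21 and -6.31 in control, -5.22, -4.56 and -6.09 in DSS, -6.2, -2.55 and -2.59 in AOM, and -0.92, -0.94 and 0.19 in AOM/DSS. Cxcl3 was at -5.99, -6.19 and -6.27 in control, -6.54, -5.86 and -6.08 in DSS, -6.74, -3.76 and -3.31 in AOM, and -2.55, -2.43 and -1.53 in AOM/DSS. AOM replicate 1 was at background for both genes, whereas AOM replicates 2 and 3 lay between the control and AOM/DSS arrays. Cxcl15, the remaining gene of this role, was detected on no array.

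Against control, Cxcl5 was higher in AOM/DSS by 8.5 ± 0.95 (SE; adjusted p = 0.00016, at least 99.2-fold), where the bound sets each undetected control array at the dimmest probe that passed there. Cxcl1 was higher by 6.45 ± 0.87 (adjusted p = 0.00048, at least 31.7-fold), Cxcl2 by 5.63 ± 0.84 (adjusted p = 0.00079, at least 10.4-fold) and Cxcl3 by 3.98 ± 0.72 (adjusted p = 0.0022, at least 3.4-fold). With normexp background correction, which starts from the median spot signal in place of the processed intensity and adds an offset of 50, Cxcl5 and Cxcl1 kept their calls at 4.47 and 2.69, whereas Cxcl2 and Cxcl3 differed by 1.41 and 0.09 and did not pass (adjusted p = 0.2 and 0.94). The 4 calls held without any 1 of the 12 arrays. The slide with the 3 controls carried only 1 AOM/DSS array, replicate 3, which differed from them by 9.74, 7.51, 6.37 and 4.62. With slide as a block, AOM/DSS against control rests on that array, and its error comes from the spread on all 3 slides. In AOM against control, Cxcl5 was at least 18.5-fold and Cxcl1 at least 8.5-fold higher (adjusted p = 0.0051 and 0.0081). Cxcl2, detected on AOM replicates 2 and 3 alone, was at least 1.11-fold higher in AOM than in control (adjusted p = 0.0492), with overlapping groups, and the call ended without any 1 of the arrays other than AOM replicate 1 (adjusted p up to 0.17). Cxcl3 did not pass. Cxcl5 and Cxcl1 lost their AOM calls with normexp (adjusted p = 0.1 and 0.33) and with slide as a block (adjusted p = 0.2 and 0.25). No slide held both AOM and control arrays, and none of the 15 member calls in AOM against control passed in the block fit. Over all genes, 2 were called higher and 2 lower in AOM than control in that fit, against 2805 and 3340 without the block.

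Cxcl2 was higher in AOM/DSS than in AOM by 3.22 ± 0.84 (adjusted p = 0.016) and Cxcl3 by 2.43 ± 0.72 (adjusted p = 0.025). Without AOM replicate 1 the differences were 2.01 and 1.36 (adjusted p = 0.02 and 0.025). The call of Cxcl2 ended without AOM/DSS replicate 3 (adjusted p = 0.051), and that of Cxcl3 without AOM/DSS replicate 1, 2 or 3 (adjusted p = 0.055, 0.053 and 0.077). Within the slide that held replicates 1 and 2 of both groups the differences were 3.45 and 2.76. With normexp they were 1.78 and 0.83 and did not pass. Cxcl3 also lost the call with quantile normalization and with the series matrix (2.09, adjusted p = 0.056). Cxcl5 and Cxcl1 differed by 2.42 ± 0.95 (adjusted p = 0.066) and 1.9 ± 0.87 (adjusted p = 0.11) and did not pass. Whether the 4 ligands differ from each other here was not tested.

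Against DSS, AOM/DSS was higher for Cxcl5 by 5.22 ± 0.95 (adjusted p = 0.0033), for Cxcl1 by 4.02 ± 0.87 (adjusted p = 0.0075), for Cxcl2 at least 11.6-fold (adjusted p = 0.003) and for Cxcl3 at least 3.79-fold (adjusted p = 0.0032). With slide as a block these adjusted p-values were 0.077, 0.12, 0.067 and 0.05, and none passed. The block compares these groups only across slides. Cxcl2 and Cxcl3 also lost the call with normexp (adjusted p = 0.16 and 0.7).

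Cxcr2, the receptor for these ligands and a neutrophil surface protein, followed the same order of groups. It was at -5.91, -6.11 and -6.19 in control, -4.68, -2.38 and -5.66 in DSS, -2.81, -3.27 and -2.83 in AOM, and -1.23, -2.14 and -1.34 in AOM/DSS. It was detected on no control array, on DSS replicate 2 alone, and on all AOM and AOM/DSS arrays. Compared with control, its level was higher at least 5.15-fold in AOM/DSS (adjusted p = 0.00065) and at least 1.95-fold in AOM (adjusted p = 0.01), and it was higher in AOM/DSS than in DSS by 2.67 ± 0.65 (adjusted p = 0.012). A dimmer probe of Cxcr2 gave smaller log2 differences of 1.03, 0.38 and 0.78 in these comparisons, and with normexp they were 0.48, -0.31 and 0.62, none of which passed. Cxcr1, the related receptor, was detected on no array.

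Neutrophil marker transcripts moved with this axis. The mean log2 level of 7 markers was -5.23 to -4.68 in control, -3.81 to -1.44 in DSS, -1.96 to -0.98 in AOM and 0.2 to 0.76 in AOM/DSS, and all 7 were called higher in AOM/DSS than in control. Only 2, 1 and 1 of the 7 were well above background on the control arrays, and 2 on DSS replicate 3. The means of those arrays therefore lie largely at background. In bulk tissue, more cells of a type and more RNA per cell cannot be told apart, and the part of neutrophils in the ligand values was not tested.

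**Figure D3:**
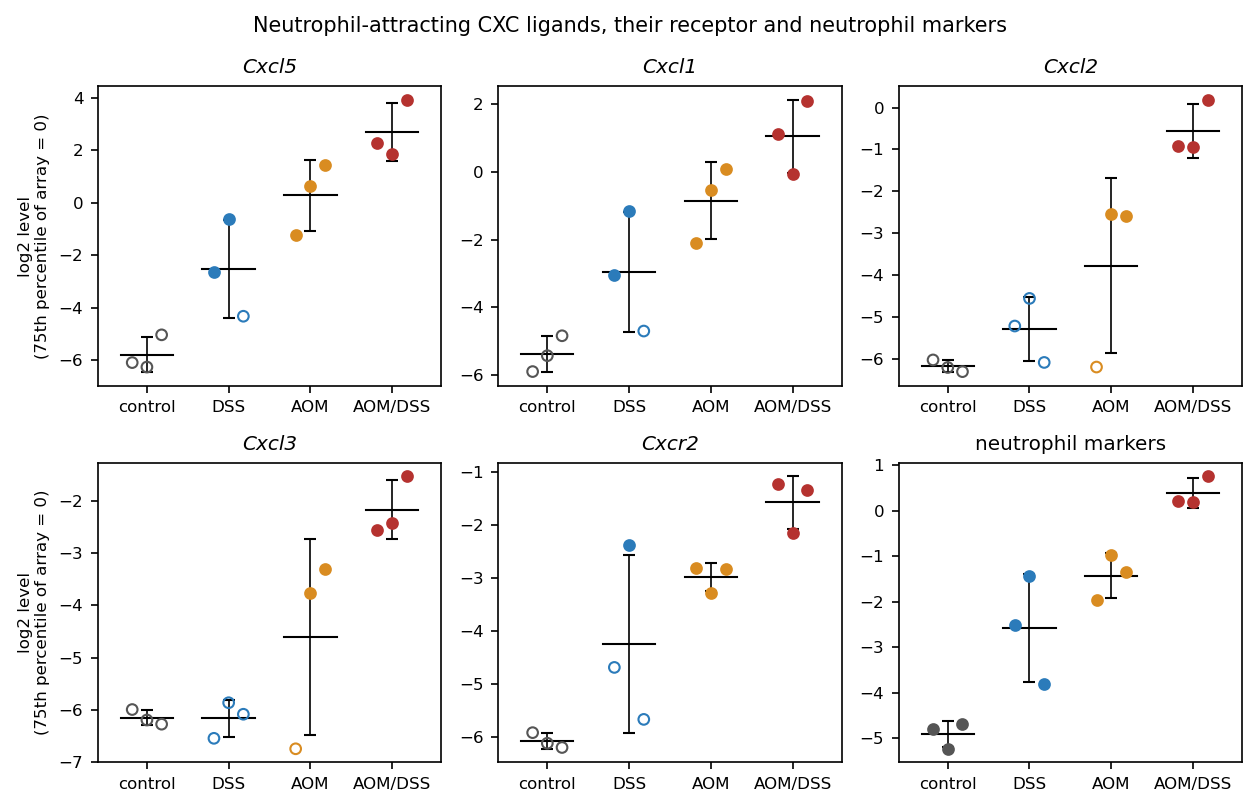
Log2 level of Cxcl5, Cxcl1, Cxcl2, Cxcl3, their receptor gene Cxcr2 and the mean of 7 neutrophil markers on each array, by group, with the group mean and SD as bars and open symbols for values not well above background. All 3 AOM/DSS arrays lie above all control arrays in each panel, and AOM replicate 1 sits at background for Cxcl2 and Cxcl3.

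These ligand genes lie side by side. In the RefSeq annotation of GRCm38.p6 the order of protein-coding genes on chromosome 5 is Cxcl5, Ppbp, Pf4, Cxcl3, Cxcl15, Cxcl1, Cxcl2. Ppbp and Pf4 encode platelet chemokines whose symbols fall outside the naming rule and which are named here for their position. Ppbp was higher in AOM/DSS than in control by 2.18 ± 0.58 (adjusted p = 0.016), Pf4 differed by 1.64 ± 0.68 without passing (adjusted p = 0.085), and Cxcl15 was not detected. In the CC cluster that runs Ccl2, Ccl7, Ccl11, Ccl12, Ccl8, Ccl1, only Ccl2 and Ccl7 were called in AOM/DSS against control. With at most 5 other protein-coding genes allowed between neighbours, 35 of the 53 members fell into 9 such clusters.

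Of the monocyte and macrophage CC ligands, 3 of 9 rose (33.3%) and 1 fell (11.1%) in AOM/DSS against control, beside 17.2% and 17.5% of all genes. In AOM, 4 rose (44.4%) and 0 fell, beside 14.8% and 17.6% of all genes. Ccl7 and Ccl2 encode monocyte chemoattractants that act on CCR2. Ccl7 was at -3.58, -3.51 and -0.84 in control, -1.06, -0.57 and -2.07 in DSS, -0.55, 0.95 and 1.36 in AOM, and 2.23, -0.32 and 2.46 in AOM/DSS. Ccl2 was at -3.04, -3.4 and -1.08 in control, -0.73, 0.34 and -1.97 in DSS, 0.03, 0.31 and 1.28 in AOM, and 2.12, -0.08 and 1.86 in AOM/DSS. The control values of both were highest on replicate 3, and every AOM and AOM/DSS array lay above all 3.

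Against control, Ccl7 was higher by 4.1 ± 0.91 in AOM/DSS (adjusted p = 0.0064) and by 3.23 ± 0.91 in AOM (adjusted p = 0.024), and Ccl2 by 3.81 ± 0.79 (adjusted p = 0.0045) and 3.05 ± 0.79 (adjusted p = 0.019). The AOM calls of both ended without AOM replicate 2 or 3 or control replicate 1 or 2 (adjusted p up to 0.086), and with normexp, where the differences were 1.41 for Ccl7 (adjusted p = 0.16) and 1.35 for Ccl2 (adjusted p = 0.13). Ccl7 was also higher in AOM/DSS than in DSS by 2.69 ± 0.91 (adjusted p = 0.041), a call that ended without AOM replicate 2, AOM/DSS replicate 1 or 3, or any 1 DSS array (adjusted p up to 0.14). Their receptor gene Ccr2 was not called in AOM/DSS against control (1.47 ± 0.88, 95% interval -0.48 to 3.42).

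Ccl3 and Ccl4 encode macrophage inflammatory proteins that attract monocytes and T cells. Ccl3 was at -5.33, -5.87 and -4.08 in control, where it was not detected, -3.35, -2.15 and -3.61 in DSS, -1.5, -2.5 and -1.71 in AOM, and -1.78, -2.91 and -1.1 in AOM/DSS. Its level exceeded control at least 4.02-fold in AOM/DSS (adjusted p = 0.0025) and at least 4.08-fold in AOM (adjusted p = 0.0072). With normexp correction the differences were -0.12 and 0.04, and neither passed. Ccl4 was at -2.22, -2.36 and -2.78 in control and -0.52, -1.3 and -0.71 in AOM, and was higher in AOM by 1.61 ± 0.52 (adjusted p = 0.04). That call ended without any 1 AOM or control array or AOM/DSS replicate 1 (adjusted p up to 0.098).

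None of the other CC ligands of this role was called higher in any comparison. Ccl6, a macrophage chemokine, was at 5.26, 6.18 and 5.46 in control, 5.31, 5.27 and 5.49 in DSS, 5.72, 4.68 and 5.21 in AOM, and 4.71, 4.16 and 4.28 in AOM/DSS. It was lower in AOM/DSS than in control by a difference of -1.24 ± 0.31 (adjusted p = 0.011) and than in DSS by -0.97 ± 0.31 (adjusted p = 0.035). With quantile normalization these were -0.74 and -0.44 and neither passed, nor did either with slide as a block (adjusted p = 0.11 and 0.4). The second call ended without AOM/DSS replicate 2 or 3 or DSS replicate 2 or 3 (adjusted p up to 0.11). Ccl9, a related myeloid chemokine, was at 2.63, 2.9 and 2.5 in DSS and 1.06, 0.9 and 0.8 in AOM/DSS, a difference of -1.76 ± 0.35 (adjusted p = 0.0049) that was lost with slide as a block (adjusted p = 0.12).

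Ccl5, the T cell and monocyte attractant RANTES, was at 4.15, 1.58 and 2.01 in control, 4.17, 4.07 and 3.32 in DSS, 5.22, 2.42 and 2.59 in AOM, and 0.53, 0.64 and 1.44 in AOM/DSS. Every AOM/DSS array lay below every other array. The difference was -2.98 ± 0.79 from DSS (adjusted p = 0.017), -2.54 ± 0.79 from AOM (adjusted p = 0.03) and, without passing, -1.71 ± 0.79 from control (adjusted p = 0.12). Both calls ended without AOM/DSS replicate 1 or 2 (adjusted p up to 0.09) and with slide as a block (adjusted p = 0.13 and 0.057), and the difference from AOM fell to -1.63 without AOM replicate 1 (adjusted p = 0.095). Ccl8 and Ccl12, monocyte attractants, were not called in any comparison. Ccl12 was at -3.73 and -4.35 on control replicates 1 and 2 but -0.34 on control replicate 3.

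Macrophage and monocyte markers were also low in control. The mean log2 level of 10 markers was 0.7, -0.51 and 1.84 in control and 2.1 to 3.18 on the other 9 arrays, and 6 of the 10 were called higher in AOM/DSS and 7 in AOM than in control. Fibroblast markers were at 0.3, -0.51 and 3.07 in control and 2.29 to 3.3 elsewhere. The part of either in the chemokine values was not tested.

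The interferon-induced ligands Cxcl9 and Cxcl10, which attract CXCR3-bearing T and NK cells, were variable in AOM/DSS. Cxcl9 was at -1.36, -3.06 and -1.02 in control, -0.25, -1.0 and -1.62 in DSS, -0.9, -0.74 and 0.0 in AOM, and 2.46, -0.53 and 1.41 in AOM/DSS. It was higher in AOM/DSS than in control by 2.93 ± 0.74 (adjusted p = 0.012), and the adjusted p was 0.098 with slide as a block and 0.057 with normexp. The difference from DSS, 2.07 ± 0.74, passed narrowly with overlapping groups (adjusted p = 0.0498) and did not pass without AOM replicate 1, 2 or 3, AOM/DSS replicate 1 or 3, DSS replicate 2 or 3 or control replicate 1 (adjusted p up to 0.18). Cxcl10 was at 3.76, -0.65 and 2.14 in AOM/DSS against -0.95, -1.19 and -0.77 in control, and did not pass (adjusted p = 0.057). AOM/DSS replicate 2 was the lowest of its group for both ligands.

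The ligands linked to type 2 responses were not called in any comparison. Ccl11 and Ccl24 encode eotaxins, which act on eosinophils through CCR3, and Ccl17 a ligand of CCR4. Their differences from control in AOM/DSS were -0.53, 1.12 and 1.15, and adjusted p for Ccl17 was 0.0543. Ccl11 ranged from -4.04 to 0.37 within the control group alone.

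Of the 12 mucosal and lymphoid ligands tested, 2 rose and 2 fell in AOM/DSS against control, 16.7% each way, near the 17.2% and 17.5% of all genes. Ccl28, an epithelial chemokine that draws CCR10-bearing IgA plasma cells to the colon, was at 0.89, 0.64 and 0.39 in control, 0.46, -0.14 and 0.64 in DSS, 0.06, -0.63 and -1.2 in AOM, and -2.61, -3.13 and -3.64 in AOM/DSS. All AOM/DSS arrays lay below all others. It fell by 3.76 ± 0.37 against control (adjusted p = 7.9e-05), by 3.45 ± 0.37 against DSS (adjusted p = 0.00027) and by 2.53 ± 0.37 against AOM (adjusted p = 0.0022). These 3 calls held with slide as a block, where the differences were -4.27, -4.11 and -2.58.

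Ccl28 was also lower in AOM than in control, by a difference of -1.23 ± 0.37 (adjusted p = 0.029), the 1 member called lower there. That call ended without AOM replicate 2 or 3 or control replicate 1 or 2 (adjusted p up to 0.094) and with slide as a block (adjusted p = 0.27). Its receptor gene Ccr10 was at -2.36, -3.24 and -3.44 in AOM, -3.42, -1.03 and -3.15 in DSS, and -5.56, -6.72 and -4.31 in AOM/DSS, where it was detected on replicate 3 alone. The Ccr10 difference was -2.51 ± 0.89 from AOM (adjusted p = 0.0475) and -3 ± 0.89 from DSS (adjusted p = 0.026). The call against DSS ended without AOM/DSS replicate 1 or 2 or DSS replicate 2 or 3 (adjusted p up to 0.093), and that against AOM without any 1 AOM array, AOM/DSS replicate 1 or 2, DSS replicate 3 or control replicate 1 (adjusted p up to 0.15). Ccr10 was also undetected on control replicates 1 and 2 and its difference between AOM/DSS and control was -0.27 ± 0.89 (95% interval -2.24 to 1.7).

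Cx3cl1 encodes fractalkine, a membrane-tethered ligand made by epithelium and endothelium. It was at 3.24, 2.85 and 2.44 in control, 2.61, 2.6 and 3.01 in DSS, 2.89, 2.77 and 2.49 in AOM, and 1.0, 1.39 and 0.93 in AOM/DSS. It was lower in AOM/DSS than in control by a difference of -1.74 ± 0.25 (adjusted p = 0.00064), than in DSS by -1.64 ± 0.25 (adjusted p = 0.0015) and than in AOM by -1.61 ± 0.25 (adjusted p = 0.0029). All 3 calls held without any 1 array. The second was lost with slide as a block (adjusted p = 0.076).

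The receptor gene Cx3cr1, expressed by resident intestinal macrophages, moved the other way against control only. Its AOM/DSS level differed by -0.03 from AOM and 0.35 from DSS, and neither was called. Cx3cr1 was at -3.25, -3.62 and -0.54 in control, 0.16, 0.03 and -0.6 in DSS, 0.28, 0.33 and 0.12 in AOM, and -0.34, 0.31 and 0.66 in AOM/DSS. Control replicates 1 and 2 stood apart, and control replicate 3 lay within the DSS range. The difference from control was 2.68 ± 0.66 in AOM/DSS (adjusted p = 0.01) and 2.71 ± 0.66 in AOM (adjusted p = 0.016). The AOM call ended without AOM replicate 2 or control replicate 1 or 2 (adjusted p up to 0.059), and the AOM/DSS call did not pass with slide as a block (adjusted p = 0.08) or normexp (0.96, adjusted p = 0.088).

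Cxcl14 and Cxcl16 were called higher than control in both groups that received AOM. Cxcl14, a chemokine of epithelium and stroma, was at -0.87, -0.96 and 1.8 in control, 2.34, 4.13 and 2.48 in DSS, 3.08, 4.04 and 3.67 in AOM, and 4.44, 4.13 and 4.57 in AOM/DSS. It was higher by 4.39 ± 0.7 in AOM/DSS (adjusted p = 0.0011) and by 3.61 ± 0.7 in AOM (adjusted p = 0.0083). Cxcl16, the ligand of CXCR6, was at 0.08, -1.02 and 0.26 in control and 0.97 to 1.8 on all other arrays. It was higher by 1.71 ± 0.33 in AOM/DSS (adjusted p = 0.0033) and by 1.6 ± 0.33 in AOM (adjusted p = 0.01). For both genes every DSS array also lay above every control array, without a call. The DSS differences from control were 2.99 ± 0.7 for Cxcl14 (adjusted p = 0.095) and 1.59 ± 0.33 for Cxcl16 (adjusted p = 0.074). Cxcr6 was not called in any comparison.

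Ccl25, the gut-homing ligand of CCR9, was at 0.89, 1.29 and 0.73 in DSS and -0.46, -0.19 and -0.26 in AOM/DSS, a difference of -1.27 ± 0.31 (adjusted p = 0.012) that was lost with slide as a block (adjusted p = 0.15). Its control values of -0.3, -0.02 and -0.1 lay with those of AOM/DSS. Ccl27a was at -1.31, -1.58 and -2.44 in AOM and between -5.19 and -3.12 on the other 9 arrays. It was higher in AOM than in control by 2.04 ± 0.42 (adjusted p = 0.0097) and lower in AOM/DSS than in AOM by a difference of -2.96 ± 0.42 (adjusted p = 0.002). With normexp these were 0.2 and -1.84 and did not pass. Mice carry near-identical copies of Ccl27a, Ccl21a and Ccl19, which a probe may read together. Whether these probes do was not tested.

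**Figure D4:**
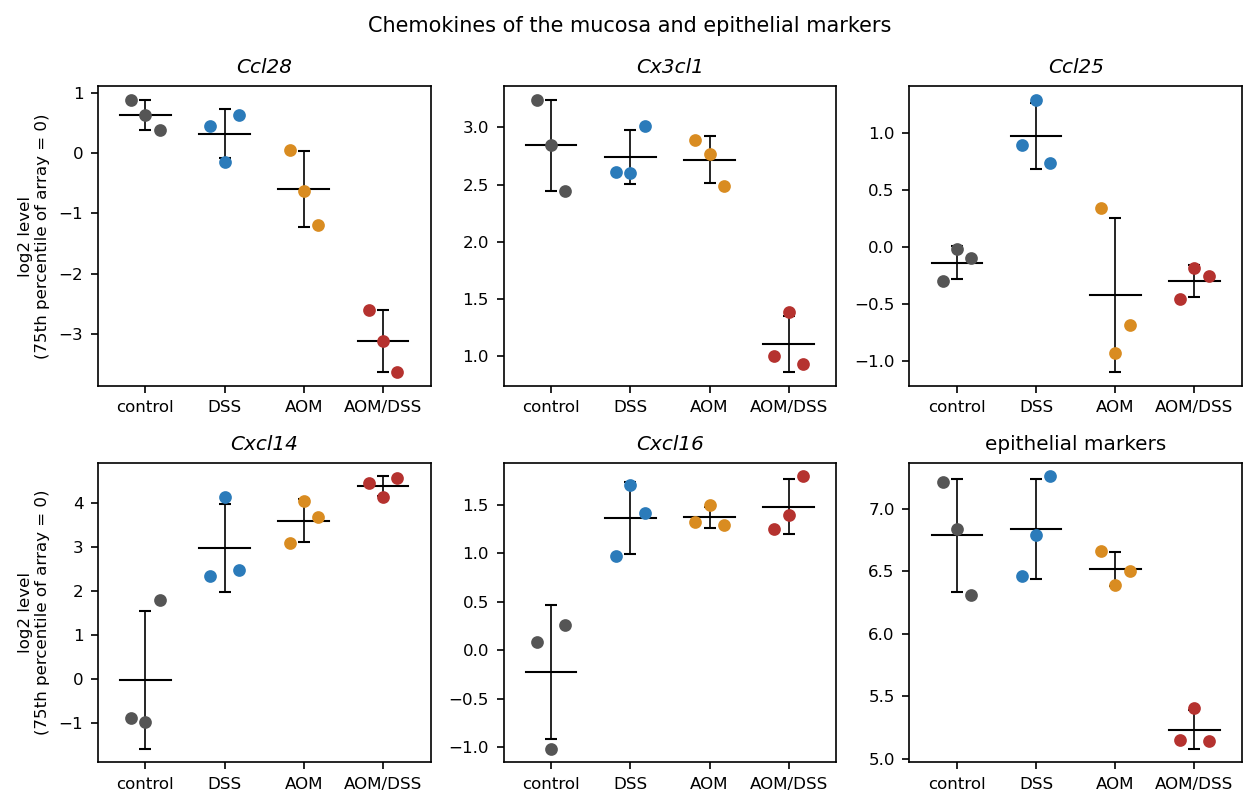
Log2 level of Ccl28, Cx3cl1, Ccl25, Cxcl14, Cxcl16 and the mean of 10 epithelial markers on each array, by group, with the group mean and SD as bars. Ccl28 lies between -3.64 and -2.61 and Cx3cl1 between 0.93 and 1.39 on the AOM/DSS arrays, below all other arrays, and epithelial markers are also lowest there, at 5.14 to 5.41.

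Of the 10 epithelial markers, 8 were called lower in AOM/DSS than in control, with a median difference of -1.26. Cx3cl1 and Ccl28 were also lower in that comparison, and the Ccl28 difference of -3.76 was larger than the marker median. In AOM against control, where Ccl28 was called lower at -1.23, 0 of the 10 markers were called and their median was -0.26. The part of epithelial content in these values was not tested.

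Several receptor genes of lymphocytes were lower in AOM/DSS than in DSS, whereas Ccr7 and Ccr9 and the ligand genes Ccl19, Ccl21a and Cxcl13 did not pass there (adjusted p from 0.067 to 0.7). Cxcr5, the B cell receptor for the follicular chemokine CXCL13, was at 0.04, -1.86 and 0.63 in control, 1.16, 2.24 and 1.56 in DSS, 3.04, 0.87 and -1.68 in AOM, and -3.84, -5.79 and -3.36 in AOM/DSS. All AOM/DSS arrays lay below all others, while the AOM arrays spread from -1.68 to 3.04. The difference was -5.99 ± 1.09 from DSS (adjusted p = 0.0033), -5.07 ± 1.09 from AOM (adjusted p = 0.0088) and -3.93 ± 1.09 from control (adjusted p = 0.018). The last call ended without AOM/DSS replicate 2 or control replicate 1 or 3 (adjusted p up to 0.07) and with slide as a block (adjusted p = 0.13). Its ligand gene Cxcl13 was not called in any comparison.

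Cxcr3, Ccr6 and Cxcr4 guide effector T cells, mucosal B and T cells, and lymphocytes and stem cells respectively. Cxcr3 was at 0.25, 1.17 and -0.11 in DSS, 2.37, -0.2 and -0.67 in AOM, and -2.12, -1.68 and -1.5 in AOM/DSS. Its difference was -2.2 ± 0.73 from DSS (adjusted p = 0.038) and -2.26 ± 0.73 from AOM (adjusted p = 0.034). The second was -1.33 without AOM replicate 1 (adjusted p = 0.089) and also ended without any 1 AOM/DSS array. The first ended without any 1 array of either group (adjusted p up to 0.12).

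Ccr6 was at 1.93, 2.33 and 1.68 in DSS and -1.15, -1.2 and -0.7 in AOM/DSS, a difference of -3 ± 0.76 (adjusted p = 0.014) that held without any 1 array. Cxcr4 was at -0.48, 0.34 and -0.06 in DSS and -2.33, -2.29 and -2.01 in AOM/DSS, a difference of -2.14 ± 0.62 (adjusted p = 0.023). Xcl1, a ligand made by NK and CD8 T cells, was at -1.69, -1.64 and -1.99 in DSS and -4.85, -4.78 and -2.2 in AOM/DSS, a difference of -2.17 ± 0.61 (adjusted p = 0.021). The calls of Cxcr4 and Xcl1 ended without AOM/DSS replicate 1 or 2 or DSS replicate 2 or 3 (adjusted p up to 0.08). In each case the DSS and AOM/DSS arrays did not overlap. Against control, AOM/DSS was not called for Cxcr3, Ccr6, Cxcr4 or Xcl1, and the 2 groups overlapped. Those differences were -0.2, -1.1, -0.35 and -1.28 (adjusted p = 0.86, 0.29, 0.7 and 0.13). For each of these genes every DSS array lay above every control array, without a call. With slide as a block, the differences from DSS were -5.84 for Ccr6, -3.55 for Xcl1 and -10.11 for Cxcr5, which passed, and -3.68 for Cxcr4 and -4.09 for Cxcr3, which did not (adjusted p = 0.11 each).

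Ccl19 and Ccl21a encode the CCR7 ligands of lymphoid tissue. Ccl19 was at 4.81, 1.07 and -2.48 in AOM and -2.84, -2.57 and -3.95 in AOM/DSS, a difference of -4.26 ± 1.45 (adjusted p = 0.042) that was -2.42 without AOM replicate 1 (adjusted p = 0.12). It also ended without AOM replicate 2, any 1 AOM/DSS array, DSS replicate 2 or 3 or control replicate 1. A second Ccl19 probe, detected on 10 arrays, gave AOM/DSS differences of -5.92 from AOM, -5.62 from DSS and -4.57 from control. The probe used gave -4.26, -3.73 and -2.62, and the second probe was not tested on its own. Ccl21a was at 1.8, -0.87 and 3.25 in control and 5.48, 3.62 and 3.1 in AOM, a difference of 2.68 ± 0.91 (adjusted p = 0.0457) with overlapping groups. Only leaving out control replicate 3 kept that call (adjusted p up to 0.14 otherwise), and without control replicate 2 the difference was 1.54. Ccr7 was at 2.1, -0.96 and -2.58 in AOM and was not called in any comparison.

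B cell markers followed the same arrays. Their mean log2 level over 9 genes was 2.47, 0.45 and -1.99 on the AOM arrays, 0.93 to 1.46 in DSS, -1.81 to 0.4 in control and -4.6 to -3.11 in AOM/DSS, and all 9 were called lower in AOM/DSS than in DSS. T cell markers were at 2.26 on AOM replicate 1 and at or below 1.03 on all other arrays. AOM replicate 1 was thus the highest array for Cxcr5, Ccl19, Ccl21a, Ccr7, Cxcr3, Ccr6 and Cxcr4 and for both marker lists. Without it, 4 members in place of 8 were lower in AOM/DSS than in AOM. All genes called lower fell from 3353 to 1716 in that fit, so the drop was not limited to chemokine genes. Leaving out AOM/DSS replicate 1 or 2 instead also gave 4 members, with 1613 and 2074 of all genes. The part of lymphoid tissue in these values was not tested.

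**Figure D5:**
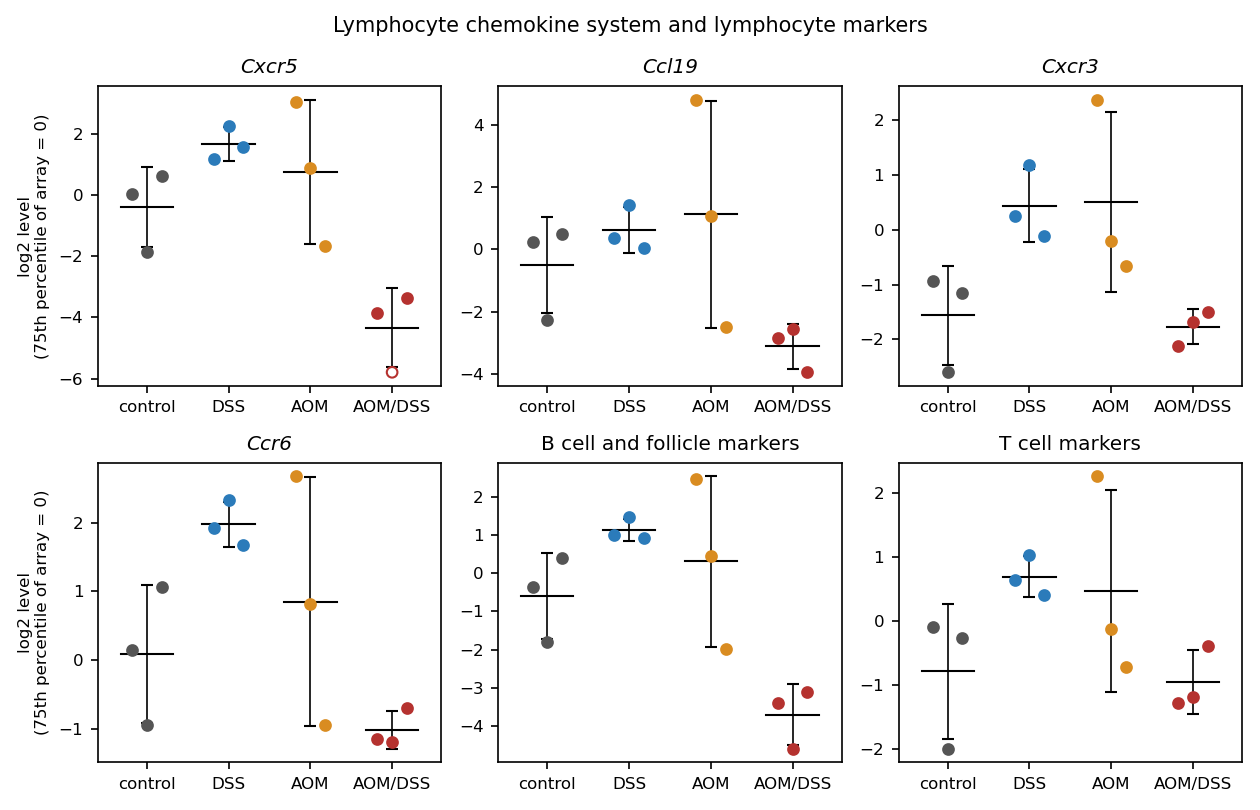
Log2 level of Cxcr5, Ccl19, Cxcr3, Ccr6 and the means of 9 B cell and follicle markers and 8 T cell markers on each array, by group, with the group mean and SD as bars and open symbols for values not well above background. AOM replicate 1 is the highest array in each panel, at 3.04 for Cxcr5 and 4.81 for Ccl19.

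Ccr3, the eotaxin receptor, was at -5.79, -4.53 and -3.9 in control, -3.13, -3.54 and -2.99 in AOM, and -3.51, -3.41 and -3.76 in AOM/DSS. It was called higher by 1.18 ± 0.4 in AOM/DSS (adjusted p = 0.041) and by 1.52 ± 0.4 in AOM (adjusted p = 0.02).

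With normexp correction the Ccr3 differences were -1.25 and -0.82, and a dimmer probe gave -1.33 and -1.08. Without control replicate 1 the AOM/DSS difference was 0.65 (adjusted p = 0.12), and it passed only when DSS replicate 1 or control replicate 3 was the array left out. The AOM call ended without AOM replicate 3 (adjusted p = 0.058), and without control replicate 1 the difference was 0.99. Of 3 eosinophil markers tested, 1 was called lower in AOM/DSS than in control.

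After DSS alone, 0 of 44 members were called by limma, while 16 were higher and 0 lower at an unadjusted p under 0.05, against 10.5% and 10.6% of all genes. The count was also 0 in each of 9 other processing settings. Cxcl14 differed by 2.99 ± 0.7 (adjusted p = 0.095), and Cxcl5, detected on 2 DSS arrays and no control array, was at least 2.65-fold higher without passing (adjusted p = 0.14). Without control replicate 3, 9 members were higher, namely Ccl12, Ccl21a, Ccl3, Ccl8, Ccr10, Cx3cr1, Cxcl12, Cxcl14 and Cxcl16. Among them Cxcl12, a stromal chemokine, was at -3.26, -3.47 and 0.61 in control and 0.03 to 1.51 in DSS, and differed by 4.23 in that fit (adjusted p = 0.0012). Without DSS replicate 1, Cxcl14 and Cxcl16 were called (adjusted p = 0.023 and 0.012). These fits moved the calls of all genes as well, from 31 higher and 31 lower to 1095 and 240 without control replicate 3 and to 1011 and 2182 without DSS replicate 1, so the change was not limited to chemokine genes.

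Of the tested members, 30 were called in at least 1 of the 5 comparisons and 14 in none. The 14 include Ccl20, Ccr9, Xcr1 and Cxcl12 as well as those named above, and Xcr1, a marker of cross-presenting dendritic cells, varied only from -2.7 to -1.58 over all arrays.

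Genes that act around the chemokine receptors were read from 3 lists, beside the 17.2% of all genes called higher and 17.5% lower in AOM/DSS against control. Of 13 tested genes for atypical receptors and related chemoattractant systems, 5 rose (38.5%) and 2 fell (15.4%), with a median of 1.64. The formyl peptide receptor genes Fpr1 and Fpr2, which sense bacterial peptides on neutrophils, differed by 4.9 ± 0.66 (adjusted p = 0.00048) and 4.1 ± 0.68 (adjusted p = 0.0014). Fpr1 is also among the neutrophil markers. C3ar1, the complement C3a receptor, was higher by 3.09 ± 0.54 (adjusted p = 0.0019), and Ackr3, a scavenger of CXCL12, by 3 ± 0.93 (adjusted p = 0.029).

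Of 36 signalling genes downstream of the receptors, 7 rose (19.4%) and 5 fell (13.9%) in AOM/DSS against control, shares near those of all genes, and the median was 0.1. Jak3, a lymphoid and myeloid kinase, was higher by 1.71 ± 0.29 (adjusted p = 0.0016), Grk3, a receptor kinase, by 1.65 ± 0.31 (adjusted p = 0.003), and Rgs2, which shortens G protein signals, by 1.63 ± 0.42 (adjusted p = 0.013). Ptk2b, a kinase of leukocyte migration, was among the falls at -1.52 ± 0.29 (adjusted p = 0.0029). Of 16 NF-kappaB pathway and target genes, 2 rose (12.5%) and 1 fell (6.25%), below the shares of all genes. The cytokine gene Tnf was higher by 3.54 ± 0.37 (adjusted p = 0.00011), the kinase gene Ikbkb by 0.86 ± 0.17 (adjusted p = 0.0035), and Ltbr, the lymphotoxin beta receptor, fell by 0.76 ± 0.25 (adjusted p = 0.036).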

How the data were processed

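One Cy3 intensity per spot was read from each deposited scanner table, written by Agilent Feature Extraction 10.7 per the submitters' processing notes. Per the file headers, background and spatial trend had been taken out of the processed intensity, and no scaling between arrays had been applied. A deposited flag (other) marks spots well above background. The deposited series matrix holds log2 values that the sorted columns show to be quantile normalized by the authors, used only as an alternative. Of 41174 probes, 27198 were given a symbol through their RefSeq accession.

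Outlier-flagged spots were left out, spots of a probe averaged, and each array's 75th percentile of log2 intensity subtracted. Group means of all 12 arrays were fitted in 1 model with limma 3.58.1 in R 4.3.3 (lmFit, eBayes), with Benjamini-Hochberg adjustment over 18963 genes. The code was tested on simulated data. The number of arrays limits precision. The members, lists, motifs and tests were chosen with earlier results of these data known. Members called in at least 1 of the 5 comparisons are given array by array, except 1 gene that is counted but not reported here; of each pathway list, up to 4 called genes with the largest difference in AOM/DSS against control are named.

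The 12 arrays lay on 3 slides. Slide 1 held AOM and AOM/DSS replicates 1 and 2, slide 2 AOM replicate 3 and all DSS arrays, and slide 3 AOM/DSS replicate 3 and all control arrays. Slide was an alternative fixed block. Other alternatives were normexp correction with an offset of 50 (on median spot signal), median scaling, quantile normalization, the series matrix, no filter, a filter on all 12 arrays, the mean of a gene's probes, a replicate block and leaving out each array.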

Additional observations from a re-analysis of the deposited data

How the results depend on the processing

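Of 62 calls of single members, 59 held with median scaling, 55 with quantile normalization and with the series matrix, 57 with no filter, 60 with the mean of a gene's probes, 24 with slide as a block and 25 with normexp correction. Calls ending in the block fit rest partly on contrasts that no slide holds, and the cause of the others was not tested. With normexp correction 5 reversed without passing in the new direction: Ccl3 (-0.12) and Ccr3 (-1.25) in AOM/DSS against control, and Ccr3 (-0.82), Cxcl2 (-0.37) and Cxcr2 (-0.31) in AOM against control. In that setting the median of all genes was -0.323 in AOM/DSS against control and -0.27 in AOM against control. The part of this common shift in the reversals was not tested. Normexp gave 6 members higher in AOM/DSS than control, 3 higher and 0 lower in AOM than control, 0 higher and 4 lower in AOM/DSS than AOM, and 2 higher and 7 lower in AOM/DSS than DSS. Calls over all genes fell as well. Higher and lower genes went from 3269 and 3315 to 1086 and 1659 in AOM/DSS against control. In AOM against control they went from 2805 and 3340 to 1063 and 800. For AOM/DSS they went from 3689 and 3353 to 508 and 741 against AOM, and from 3343 and 3460 to 680 and 1204 against DSS. Requiring detection on all 12 arrays tests fewer genes and gave 8 members higher in AOM/DSS against control, 0 against AOM and 3 against DSS. Of the 13739 genes tested there, 2162, 2063 and 2089 were higher in these comparisons. With slide as a block, 2 members were lower in AOM/DSS than control, 0 higher and 0 lower in AOM than control, and 0 higher and 4 lower in AOM/DSS than DSS. Over all genes, that fit called 935 higher and 1276 lower in AOM/DSS than control, and 2 and 2 in AOM than control. It called 201 higher and 237 lower in AOM/DSS than DSS. Median scaling gave 13 members lower in AOM/DSS than AOM, and quantile normalization and the series matrix 1 higher. Leaving out 1 array gave 8 to 19 higher and 0 to 1 lower in AOM than control, 0 to 9 higher in DSS than control, 0 to 4 higher and 4 to 11 lower in AOM/DSS than AOM, 5 to 10 higher and 6 to 14 lower in AOM/DSS than DSS, and 13 to 19 higher and 3 to 5 lower in AOM/DSS than control. The lowest of these counts came without AOM replicate 2 or control replicate 2 (8 in AOM), AOM/DSS replicate 3 (0 higher than AOM), AOM replicate 1 or AOM/DSS replicate 1 or 2 (4 lower than AOM) and AOM/DSS replicate 2 (6 lower than DSS). Over all genes, the same fits gave 914 and 1405 higher in AOM than control, and 2672 higher in AOM/DSS than AOM. They gave 1716, 1613 and 2074 lower in AOM/DSS than AOM, and 2356 lower in AOM/DSS than DSS. Deviations from the group means correlated at -0.27 to 0.244 between same-numbered arrays, above 0.1 in 8 of 18 pairs. Differently numbered arrays were not compared, so whether replicate numbers pair the arrays was not tested. With a replicate block, 56 of the 62 calls held, and 13 members were higher in AOM/DSS and 11 in AOM than control. Genes not well above background in a group have only a bound there.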
